A study of Taeniopygia guttata with 21 samples.

Results

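Skin of the anterior back was set against skin of the posterior back in embryos of the zebra finch (Taeniopygia guttata), a songbird whose adult plumage is divided into sharply bounded colour patches. The comparison uses 6 of the 21 RNA sequencing libraries of the series, chosen by their labelled location: dorsal anterior replicates 3, 8 and 11, and dorsal posterior replicates 3, 8 and 11. All the libraries are labelled wild type and stage HH28, and the labels give no treatment. The remaining libraries came from the saddle of the same back and from 4 ventral locations, and were collected to find molecules restricted to the future colour domains of the skin. Per the labels' protocols the skin was dissected whole, so each library holds epidermis, dermis and whatever pigment cells, vessels and nerves lie in the piece. The labels do not say whether a replicate number marks 1 embryo or a pool, and p-values therefore measure only the spread between these samples.

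Position along the trunk is known to be carried in skin by the HOX clusters, runs of homeobox genes that are switched on in order from head to tail. The dermis of the back descends from somites, the epidermis from surface ectoderm and the pigment cells from the neural crest, and signals between dermis and epidermis place the feather buds and, later, tell the pigment cells which melanin to make. The genes described here lie outside the HOX clusters as far as symbols and coordinates show. They are taken by role: regulators of transcription, secreted signals and their receptors, pigment cell genes, genes of the skin layers, and genes of cell contact and excitability.

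Libraries are written DA3, DA8 and DA11 for the dorsal anterior and DP3, DP8 and DP11 for the dorsal posterior replicates. They held 15999136 to 22994609 reads over genes, with 14776 to 15143 genes detected by 1 read or more. Levels are the authors' normalised read counts and are given in the order of replicates 3, 8 and 11. A log2 fold change is the dorsal anterior minus the dorsal posterior mean of log2(count + 1), with its standard error (SE), so it understates the change of genes with low counts. A gene is called where limma's Benjamini-Hochberg adjusted p over all 14005 genes tested was below 0.05, with the replicate number as a block, and adjusted p-values without a tool's name are limma's. Epidermal markers (EPCAM, TP63 and DSP) and dermal markers (COL1A2, DCN, LUM, PDGFRA, TWIST1 and TWIST2) were present in every library of both locations, with COL1A2 at 99565 to 125814 in dorsal anterior and 140547 to 188114 in dorsal posterior skin. In whole skin, fewer cells of a type and less RNA per cell cannot be told apart.

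Outside the HOX clusters 725 genes were called, 274 higher and 451 lower in dorsal anterior than in dorsal posterior skin. Over all 14005 genes tested, HOX clusters included, 5.28% were called, 2% with a positive and 3.28% with a negative difference. The counts of called members in each gene list below stand beside these shares. Of the 24 HOX cluster entries tested, 15 were called, and these are left out of all further counts. The median log2 fold change was 1.19 for the genes called higher, -1.42 for those called lower and 0.02 for all genes tested. Differences of at least 2-fold were found for 174 of the higher and 334 of the lower genes, and differences of at least 8-fold for 29 and 44. The 3 dorsal anterior and 3 dorsal posterior libraries did not overlap for 615 of the 725 genes, against 16.2% of all genes tested, and the sign was the same within each replicate number for 723. Both counts are favoured by the choice of the 725 genes, which rests on the same 6 libraries. With no replicate block the same test called 305 genes, all of them among the 725, and without 1 library at a time it called between 409 (without DP3) and 592 (without DA11). Leaving out DA3, DA8, DP3 or DP11 moved the count by more than 1.5 times, to 429, 424, 409 and 443 genes. Of the genes called, 37.8% were higher in dorsal anterior skin, and in a fit of the 9 dorsal libraries alone, saddle included, 48.0% of 911 were.

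**Figure D1:**
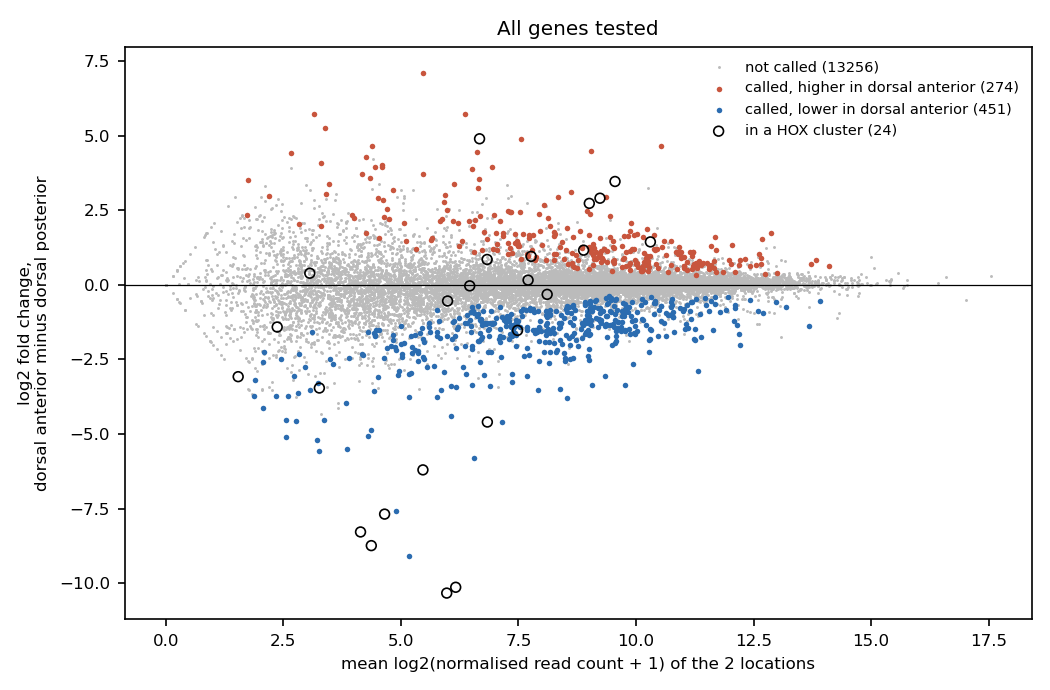
Log2 fold change of dorsal anterior over dorsal posterior skin (vertical axis) against the mean log2(normalised read count + 1) of both locations (horizontal axis) for all 14005 genes tested, with called genes outside the HOX clusters in colour (274 higher, 451 lower) and the 24 HOX cluster entries ringed. Called genes occur over the whole range of levels and more of them lie below 0 than above it.

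Among the regulators of transcription the widest rises were those of OSR2, EMX2 and TBX18, and wide falls those of ESR1 and LMO2. OSR2, a zinc-finger factor of limb joints, palate and kidney in the mouse (chromosome 2, 134428506 to 134431204), had 1256, 115 and 1428 counts in dorsal anterior skin, against 19.9, 0 and 69 in dorsal posterior skin. The libraries did not overlap, DA8 was the low one of its location, and the log2 fold change was 5.71 ± 0.62 (SE; adjusted p = 7.28e-05). EMX2, a homeobox gene needed for the shoulder blade and the urogenital tract in the mouse (chromosome 6, 29467427 to 29473516), stood at 445, 628 and 400 in dorsal anterior and 76.3, 10.2 and 35 in dorsal posterior libraries. It rose by 3.94 ± 0.62 (adjusted p = 0.00131), and saddle skin, at 509, 440 and 636, was at the anterior level. TBX18, a T-box factor of somites and limb girdle (chromosome 3, 79589224 to 79608838), had 66.5, 97 and 130 counts in dorsal anterior and 5.81, 3.14 and 7.66 in dorsal posterior skin, a log2 fold change of 3.93 ± 0.38 (adjusted p = 2.67e-05).

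TBX15, a T-box gene that sets the boundary between back and belly coat colour in the mouse, had 1652, 1731 and 2772 counts in dorsal anterior skin, against 381, 409 and 1763 in dorsal posterior skin. DP11 overlapped the anterior libraries, and within replicate number 11 the anterior library was still the higher. TBX15 was called at 1.62 ± 0.38 (adjusted p = 0.0184), but the call ended without any 1 of DA3, DA8, DP3 and DP8 (1.39 to 1.57) and with no replicate block (adjusted p = 0.374). TBX15 and TBX18 were the called members of the 5 T-box genes tested. ZEB1, a zinc-finger homeobox repressor, was called at 1.08 ± 0.26 (adjusted p = 0.0203), a call that ended without any of 4 of the 6 libraries (0.94 to 1.07), those being all but DA11 and DP8.

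ESR1, the oestrogen receptor alpha (chromosome 3, 56300104 to 56405816), had 5.25, 25.6 and 11 counts in dorsal anterior skin, against 910, 1601 and 234 in dorsal posterior skin. The highest anterior library was under the lowest posterior one, and the log2 fold change was -5.80 ± 0.77 (adjusted p = 0.000345). It was the called member of the 22 steroid and nuclear hormone receptors tested, whose median log2 fold change was 0.09.

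FOXP2, a forkhead factor best known for its part in vocal learning, had 573, 634 and 678 counts in dorsal anterior and 1778, 1472 and 1664 in dorsal posterior libraries, without overlap (-1.38 ± 0.23, adjusted p = 0.00169). It was the called member of 10 forkhead genes. TWIST1, a basic helix-loop-helix factor of dermis and mesenchyme, was lower in dorsal anterior skin by -1.24 ± 0.22 (adjusted p = 0.003; 0.255 with no replicate block), at 837, 432 and 438 against 1569, 825 and 1630 in dorsal posterior skin. TWIST1 levels of the 2 locations overlapped by a narrow margin, since DA3 exceeded DP8, and the fall was seen within each number. CUX1, a homeobox repressor, fell by 0.87 on the log2 scale (SE 0.20, adjusted p = 0.0169), and that call ended without any 1 of DA3, DA11, DP3 and DP11 (-0.83 to -0.69). SOX11, called at -1.44 ± 0.39 (adjusted p = 0.0433), lost its call without any of 5 of the 6 libraries (-1.57 to -0.86), all but DA11, and in edgeR (adjusted p = 0.0988). MAFA, the activator of the insulin gene in pancreatic beta cells, had no read in the 3 dorsal anterior libraries and 49.8, 7.05 and 96.4 counts in dorsal posterior ones, at least 55.1-fold lower against a floor of 3 reads over the 3 libraries. Its call (adjusted p = 0.00952) ended without DP3 or DP11 (-4.64 and -4.44).

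By list, 3 of 15 limb and girdle regulators tested were called higher (EMX2, TBX18 and TBX15) and 1 lower (FGF10), with a median log2 fold change of 0.12. Of 39 homeobox genes outside the HOX clusters, 2 were higher (EMX2 and ZEB1) and 1 lower (CUX1), against 5.28% called of all genes tested. Their median was -0.22. A list of anterior-posterior regulators, drawn up from MEIS, PBX and CDX genes, retinoic acid enzymes and others, had 15 members tested. Its called member was again EMX2, already counted in the lists above, and its median was 0.10. CDX2 had no read in the 6 compared libraries.

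**Figure D2:**
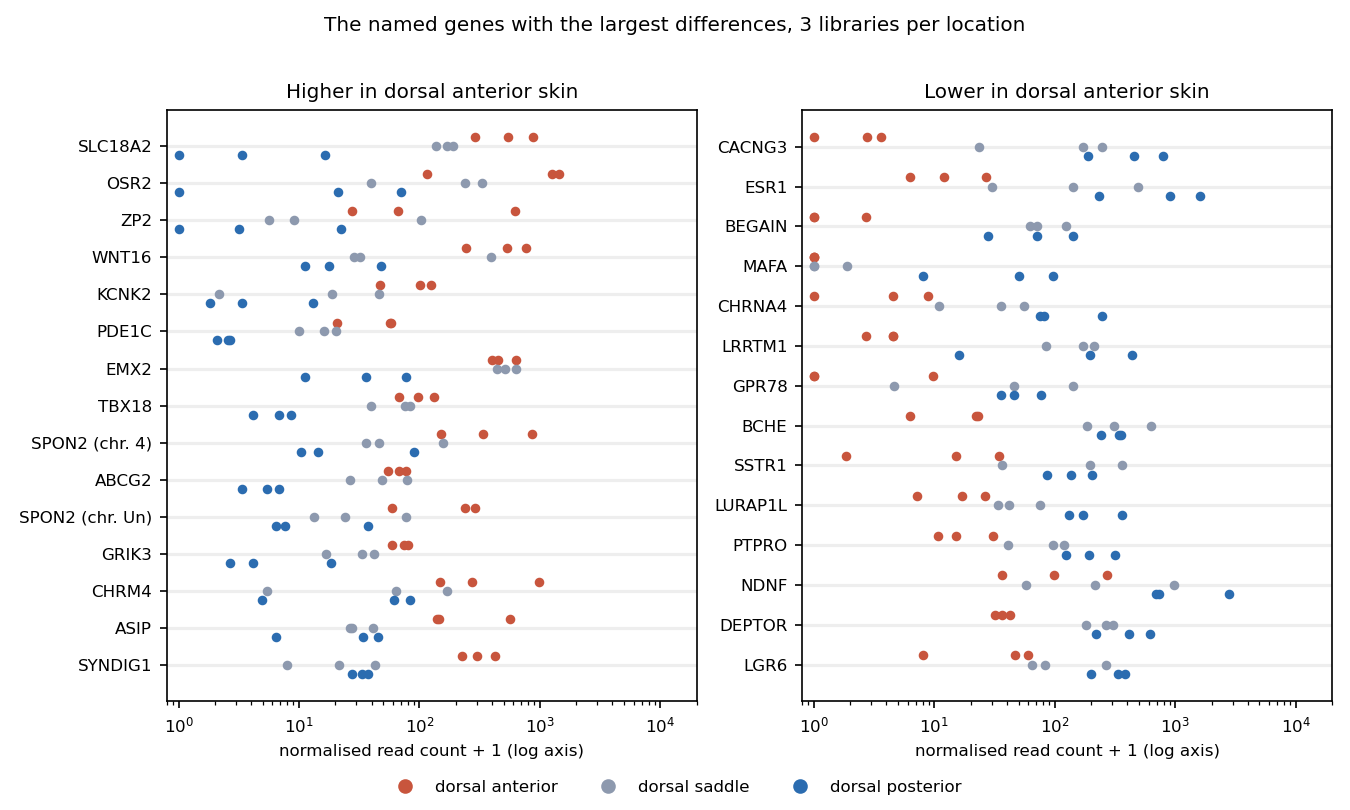
Normalised read counts plus 1 on a log axis in each of 3 libraries from dorsal anterior, dorsal saddle and dorsal posterior skin, for the 15 named entries with the largest rise (left) and 14 with a large fall (right) in dorsal anterior skin, SPON2 with 2 table entries. Anterior and posterior points do not overlap in any row. The mean log2 level of saddle skin lies between the means of the other locations for most genes. Single saddle points often fall among or beyond the points of another location, as for ASIP, EMX2 and SYNDIG1.

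Among the secreted signals, WNT16, WNT2 and WNT5A were higher in dorsal anterior skin. WNT16, a WNT ligand of joints and bone (chromosome 1A, 22513798 to 22530257), had 532, 241 and 760 counts in dorsal anterior and 16.6, 10.2 and 47.1 in dorsal posterior skin. The lowest anterior library stood well above the highest posterior one, and the log2 fold change was 4.45 ± 0.70 (adjusted p = 0.0013). WNT2, at 315, 594 and 431 in dorsal anterior and 92.1, 155 and 33.9 in dorsal posterior skin, rose by 2.44 ± 0.46 (adjusted p = 0.00464). WNT5A, a ligand of the non-canonical pathway, had 3612.7, 2829.7 and 3948.5 counts in dorsal anterior and 1890.4, 1518.3 and 1469.4 in dorsal posterior skin. It rose by 1.09 ± 0.22 (adjusted p = 0.00756), a call that ended without DP11 (0.94).

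Receptors of the same pathway, LGR6, ROR2 and FZD9, were lower. LGR6, a receptor for R-spondins and a marker of skin stem cells in the mouse, had 7, 45.8 and 59.2 counts in dorsal anterior skin, against 198, 332 and 379 in dorsal posterior skin (-3.37 ± 0.67, adjusted p = 0.00691). ROR2, the receptor tyrosine kinase for WNT5A, was at 2162, 2344 and 4572 in dorsal anterior and 7509, 6405 and 8025 in dorsal posterior libraries, without overlap (-1.35 ± 0.24, adjusted p = 0.003). FZD9, a frizzled receptor, fell by 1.75 on the log2 scale (SE 0.35, adjusted p = 0.00643). Together 3 of 35 WNT pathway members tested were called higher and 3 lower, with a median log2 fold change of 0.27.

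EDA, the ligand that drives the formation of feather and hair placodes, had 63.9, 168 and 303 counts in dorsal anterior skin and 667, 515 and 1947 in dorsal posterior skin. The 2 sets did not overlap, and EDA fell by 2.55 on the log2 scale (SE 0.43, adjusted p = 0.0021). Of 29 genes of feather placodes and dermal condensations 1 was called higher and 3 lower, with a median of 0.20. The higher one was SPRY1, an inhibitor of FGF signalling, at 1.20 ± 0.26 (adjusted p = 0.0112), whose call ended without DA3 or DP8 (1.13 and 1.11). The lower ones besides EDA were the adhesion molecule NCAM1 (-0.87 ± 0.19, adjusted p = 0.0138, ended without any of 3 libraries at -0.88 to -0.77) and FGF10. FGF10, the mesenchymal ligand of limb and skin buds, was barely expressed, at 3.5, 0 and 1.69 in dorsal anterior and 17.4, 3.92 and 23 in dorsal posterior skin, and its call (-2.50 ± 0.57, adjusted p = 0.0149) ended without any 1 of DA8, DP3 and DP11 (-2.25 to -1.93). SPRY1 and FGF10 were the called members of 22 FGF pathway genes.

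In the BMP and TGF-beta pathway 2 of 34 genes were called, both lower, against 5.28% called of all genes tested. TGFBR2, the type II receptor for TGF-beta, had 454, 689 and 829 counts in dorsal anterior and 1308, 1488 and 1649 in dorsal posterior skin (-1.21 ± 0.25, adjusted p = 0.00857), and its call was lost without DP3 (-1.10). BMP3, an inhibitory ligand, was called at -0.52 ± 0.14 (adjusted p = 0.0437) and lost that call without any 1 of the 6 libraries (-0.56 to -0.48). NDNF, a secreted neurotrophic factor, had 268, 97.8 and 35.5 counts in dorsal anterior and 2817, 736 and 688 in dorsal posterior skin (-3.51 ± 0.82, adjusted p = 0.0198), and its call ended without any 1 of DA8, DA11, DP3 and DP11 (-3.64 to -3.13). DEPTOR, an inhibitor inside the mTOR kinase complexes, had 30.6, 35.3 and 41.5 counts in dorsal anterior against 220, 409 and 621 in dorsal posterior skin, and fell by 3.39 (SE 0.30, adjusted p = 1.16e-05).

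Of 12 retinoic acid genes, CRABP1 and RARA were called higher. CRABP1, which binds retinoic acid in the cytoplasm, had 6100, 5561 and 5436 counts in dorsal anterior skin and 1943, 1967 and 1730 in dorsal posterior skin, with 1125, 1115 and 1476 in saddle skin. The dorsal libraries were tight and well apart, yet the adjusted p was 0.0284 (1.60 ± 0.40) and the call ended without any 1 of DA3, DA8, DP3 and DP11 (1.40 to 1.62). That fit of all 21 libraries shares 1 estimate of the spread with the ventral locations. CRABP1 had 1130, 443 and 1350 counts in ventral posterior skin. With only the 6 dorsal anterior and dorsal posterior libraries fitted, its adjusted p was 0.00165. RARA, a retinoic acid receptor, had a log2 fold change of 1.08 ± 0.24 (adjusted p = 0.0138) and lost its call without any of 4 of the 6 libraries (1.02 to 1.06), all but DA11 and DP11.

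Of 22 melanocyte and melanin genes tested, 3 were called higher and none lower, with a median log2 fold change of 0.67 against 0.02 for all genes. SLC24A5, a cation exchanger of the pigment organelle (chromosome 10, 9926860 to 9934773), had 1361, 1574 and 1472 counts in dorsal anterior and 700, 606 and 609 in dorsal posterior skin, with 1228, 1353 and 1305 in saddle skin. The libraries did not overlap, and the log2 fold change was 1.20 ± 0.13 (adjusted p = 5.84e-05). KIT, the receptor that guides and sustains melanocytes, had 989, 2553 and 2179 counts in dorsal anterior and 510, 651 and 379 in dorsal posterior libraries. KIT was called at 1.81 ± 0.45 (adjusted p = 0.0256), and the call ended without any of 5 of the 6 libraries (1.41 to 1.99), all but DP3. RAB32, a small GTPase that carries cargo to the pigment organelle, was called at 0.86 ± 0.22 (adjusted p = 0.0324) and lost its call without any 1 of the 6 libraries (0.78 to 0.93).

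The enzymes of melanin synthesis were not called in the fit of all 21 libraries. TYR, the rate-limiting tyrosinase, had 1483, 1739 and 1625 counts in dorsal anterior and 985, 780 and 447 in dorsal posterior skin. The libraries did not overlap, but the SE of the log2 fold change of 1.20 was 1.44 (adjusted p = 0.737). For TYR the standard deviation of log2(count + 1) within locations was 0.42 over the 2 dorsal locations and 3.12 over the 4 ventral ones, which share 1 estimate of the spread in that fit. In the fit of the 6 compared libraries alone the SE was 0.23 and the adjusted p 0.032. With the saddle libraries added to that fit the SE was 0.32 and the adjusted p 0.0637, so TYR was not called. DCT, the dopachrome tautomerase, stood at 424, 758 and 739 in dorsal anterior and 184, 171 and 300 in dorsal posterior skin (adjusted p = 0.0661 with all libraries and 0.0116 with 6). GPNMB, a glycoprotein of the pigment organelle, and SLC45A2, a transporter that sets its pH, also had non-overlapping libraries, with log2 fold changes of 1.01 and 1.26 and adjusted p of 0.0177 and 0.0294 in the 6-library fit, against 0.655 and 0.673 with all libraries. Unlike TYR, the genes DCT, GPNMB and SLC45A2 stayed called with the saddle libraries added (adjusted p = 0.0154, 0.0133 and 0.0243).

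OCA2, a chloride channel of the same organelle, lay in the opposite direction. It had 14, 4.41 and 11.8 counts in dorsal anterior skin and 81.3, 46.2 and 88.7 in dorsal posterior skin, a log2 fold change of -2.80 (adjusted p = 0.0759 with all libraries and 0.0104 with 6). In all, the 6-library fit called 8 of the 22 genes higher and 1 lower, edgeR 4 and 0, DESeq2 4 and 2, and limma with no replicate block 1 and 0. Over all genes outside the HOX clusters the 6-library fit called 377 higher and 435 lower. There edgeR called 257 and 404, DESeq2 477 and 697, and limma with no replicate block 101 and 204. The number of genes tested in the 6-library fit is not at hand, so its share called cannot be set beside the list. For 11 of the 22 the libraries of the 2 locations did not overlap, against 16.2% of all genes tested. MITF, the master regulator of melanocytes, differed by 0.50 ± 0.22 (adjusted p = 0.239), and TYRP1 by 0.83 ± 1.02 (adjusted p = 0.746). EDNRB, an endothelin receptor, was at 134, 283 and 440 in dorsal anterior and 664, 343 and 1509 in dorsal posterior skin (-1.45 ± 0.45, adjusted p = 0.0759), and passed the threshold without DP8 (-2.03, adjusted p = 0.0126).

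Among 13 secreted regulators of melanocytes, KITLG and ASIP were called higher. KITLG, the ligand of KIT, had 563, 893 and 924 counts in dorsal anterior and 295, 391 and 489 in dorsal posterior skin, without overlap. Its log2 fold change was 1.01 ± 0.20 (adjusted p = 0.00643; 0.272 with no replicate block). ASIP, the agouti signalling protein that turns pigment cells from dark to yellow melanin (chromosome 20, 1861698 to 1865428), had 144, 563 and 138 counts in dorsal anterior skin, against 33.2, 44.7 and 5.47 in dorsal posterior skin and 25.5, 26.5 and 40 in saddle skin. The rise of 3.38 ± 0.75 (adjusted p = 0.0145) was lost without DA8 (2.70) or DP11 (2.72). Most of these dorsal levels were low beside those of the belly. There ASIP had 5092, 447 and 1163 counts in ventral anterior and 5534, 4795 and 2952 in ventral posterior skin. DA8, at 563, stood above the 447 of ventral anterior replicate 8.

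**Figure D3:**
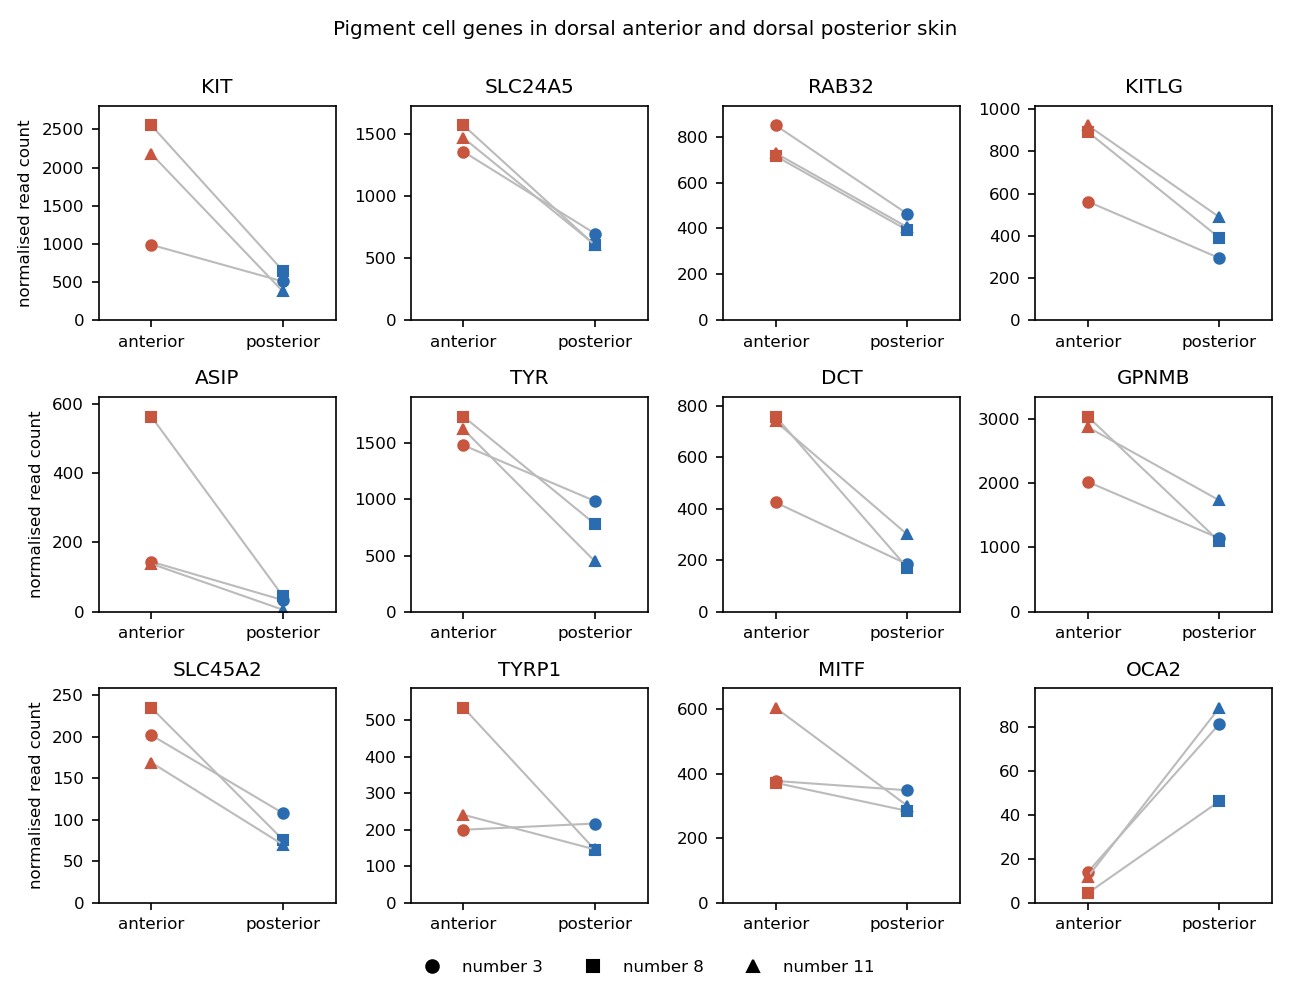
Normalised read counts (vertical axes, from 0) of 12 genes of pigment cells and their regulators in dorsal anterior (left in each panel) and dorsal posterior skin, with lines joining libraries of the same replicate number. The anterior library was the higher of its number in every panel except that of OCA2, where it was the lower all 3 times, and that of TYRP1 for number 3, at 200 in dorsal anterior and 217 in dorsal posterior skin. The 12 genes are a selection made with the values known. Of those not drawn, EDNRB (-1.45), SFRP2 (-2.12), FGF2 (-1.39) and DKK3 (-0.88) were lower anteriorly within each number. GPR143 (0.99), SOX10 (0.77), RAB38 (0.89), MLPH (0.57), RAB27A (0.31), NTF3 (0.30) and WNT7A (0.21), also not drawn, were higher within each number.

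All 13 epidermal genes tested had a positive log2 fold change (0.34 to 1.36, median 0.64), and 3 were called. Their summed level was 41164 to 48186 in the dorsal anterior and 24500 to 28217 in the dorsal posterior libraries. DSP, the desmoplakin of cell junctions, had 16572, 23859 and 19059 counts in dorsal anterior and 10610, 11132 and 11075 in dorsal posterior skin (0.84 ± 0.17, adjusted p = 0.00626). TFAP2C, an epidermal transcription factor, rose by 1.36 ± 0.26 (adjusted p = 0.00576; 0.511 with no replicate block), and the splicing factor ESRP2 was called at 0.64 ± 0.18 (adjusted p = 0.044), a call that ended without any of 5 of the 6 libraries (0.51 to 0.71), all but DP8. The part of the epidermal share in the other differences was not tested.

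Of 25 genes of dermal fibroblasts and matrix, 2 were called higher and 2 lower, with a median of -0.12. Decorin (DCN), a proteoglycan that coats collagen fibrils, had 22861, 23935 and 19018 counts in dorsal anterior and 13281, 14325 and 14640 in dorsal posterior skin (0.63 ± 0.11, adjusted p = 0.00252). Fibulin 1 (FBLN1), a matrix protein of elastic fibres, had 8478, 8047 and 7867 in dorsal anterior and 22854, 15495 and 27275 in dorsal posterior skin (-1.39 ± 0.24, adjusted p = 0.00252). Both sets were free of overlap, in opposite directions. Fibulin 5 (FBLN5) was called at 1.80 ± 0.47 (adjusted p = 0.0363) and TWIST1 lower as above, and the FBLN5 call ended without any of 4 of the 6 libraries (1.22 to 2.02). The one collagen called of 16 was COL21A1, a fibril-associated chain, at 120, 305 and 318 in dorsal anterior and 37.3, 35.3 and 71.2 in dorsal posterior skin (2.29 ± 0.50, adjusted p = 0.0112, ended without replicate 8 of either location at 1.98 and 2.15). The collagen median was -0.34, and the summed level of all 16 was 138131 to 175674 in dorsal anterior and 186313 to 256558 in dorsal posterior skin. Most of that sum was COL1A2, at 99565 to 125814 in dorsal anterior and 140547 to 188114 in dorsal posterior skin, which was not called (-0.5).

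Of 26 metalloproteases and inhibitors, 3 were called higher, all of the ADAMTS group, and 1 lower. All 3 ADAMTS calls ended without DA8 and also without DP11. With no replicate block 1 gene of this list was called higher. ADAMTS12 (0.84, adjusted p = 0.0278) kept its call in 1 of the 6 fits without 1 library. ADAMTS18 was at 1175, 1984 and 1744 in dorsal anterior and 655, 503 and 423 in dorsal posterior skin (1.62 ± 0.34, adjusted p = 0.00953, ended without DA8 or DP11 at 1.42 each). MMP15, a membrane-bound protease, was the lower one, with 829, 1352 and 1922 counts in dorsal anterior and 3965, 4832 and 4893 in dorsal posterior skin. It fell by 1.81 (SE 0.19, adjusted p = 4.03e-05). SPON2, a secreted matrix protein, has 2 entries in the table whose reads a near-identical copy could share, so its values are uncertain: the entry on chromosome 4 had 335, 149 and 861 counts in dorsal anterior and 13.3, 9.41 and 89.8 in dorsal posterior skin (3.88 ± 0.71, adjusted p = 0.00392).

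SLC18A2, the vesicular transporter that loads monoamines into storage vesicles (chromosome 6, 29304080 to 29329677), had the largest rise of any named gene. It had 877, 546 and 290 counts in dorsal anterior skin, against 0, 2.35 and 15.3 in dorsal posterior skin, and 137, 189 and 169 in saddle skin. The log2 fold change was 7.10 ± 0.91 (adjusted p = 0.00021). It was among 16 genes of monoamine handling tested, of which 2 were called higher and 1 lower (median 0.32). The other higher one was the serotonin receptor HTR7 (2.34 ± 0.64, adjusted p = 0.0445, ended without any of 5 of the 6 libraries at 1.84 to 2.68) and the lower one the dopamine receptor DRD1 (-1.60 ± 0.41, adjusted p = 0.031, ended without any 1 of DA3, DA11, DP3 and DP11 at -1.63 to -1.29).

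CACNG3, a partner subunit of calcium channels and glutamate receptors (chromosome 14, 8971757 to 8975430), had 2.63, 1.76 and 0 counts in dorsal anterior skin, against 451, 187 and 797 in dorsal posterior skin. Its fall of -7.56 ± 0.68 (adjusted p = 1.16e-05) was the largest of any named gene. GRIK3, a kainate receptor subunit, went the other way, at 58.7, 73.2 and 78.7 in dorsal anterior and 1.66, 3.14 and 17.5 in dorsal posterior skin (3.59 ± 0.60, adjusted p = 0.00205). The pacemaker channel HCN2 had 42, 50.2 and 61.8 counts in dorsal anterior and 119, 210 and 147 in dorsal posterior skin (-1.59 ± 0.24, adjusted p = 0.00106). Of 107 ion channel genes, 6 were called higher and 7 lower (median -0.08). One of the 7 is TRPS1, which the name pattern of that list caught but which encodes a transcription factor (-1.50 ± 0.31, adjusted p = 0.00792). GABRB2, a GABA receptor subunit, was among the higher ones at 2.19 ± 0.44 (adjusted p = 0.00685).

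SYNDIG1, a membrane protein of excitatory synapses, had 225, 300 and 419 counts in dorsal anterior and 26.6, 32.1 and 36.1 in dorsal posterior skin, with saddle skin low as well at 6.96, 20.3 and 41.8 (3.24 ± 0.46, adjusted p = 0.00051). PDE1C, a calmodulin-dependent phosphodiesterase, had 56.9, 55.5 and 19.5 counts in dorsal anterior and 1.66, 1.57 and 1.09 in dorsal posterior skin (4.06 ± 0.71, adjusted p = 0.00271). BEGAIN, a protein of the postsynaptic scaffold, was lower, at 0, 0 and 1.69 in dorsal anterior and 70.5, 26.7 and 141 in dorsal posterior skin (-5.56 ± 1.0, adjusted p = 0.00342). PTPRO, a receptor tyrosine phosphatase (chromosome 1A, 69333743 to 69480291), stood at 14, 9.7 and 29.6 in dorsal anterior and 315, 191 and 123 in dorsal posterior skin (-3.52 ± 0.59, adjusted p = 0.00191). LURAP1L had 25.4, 6.17 and 16.1 counts in dorsal anterior and 130, 360 and 169 in dorsal posterior skin (-3.76 ± 0.56, adjusted p = 0.000951). None of these 5 sets overlapped.

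For other named genes with large differences the call was lost in some of the fits without 1 library. KCNK2, a potassium channel, was called at 4.29 and lost its call without any 1 of DA3, DP3 and DP8 (3.56 to 3.98). CHRM4, a muscarinic receptor, was called at 3.55 and lost its call without any 1 of DA3, DA8 and DP8 (2.83 to 3.08). ABCG2, an efflux transporter, was called at 3.73 and kept that call only in the fit without DP11 (2.93 to 4.13 in the other 5 fits). ZP2, a protein of the egg coat, had 26.3, 624 and 66 counts in dorsal anterior and 0, 21.2 and 2.19 in dorsal posterior skin. It was called at 4.66, lost the call without DA8 (4.06) or DP3 (4.07), and was not called by DESeq2 (adjusted p = 0.0805).

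The second SPON2 entry, on an unplaced sequence, was called at 3.71 and lost its call without any 1 of DA3, DP3 and DP8 (3.08 to 3.44). On the lower side, CHRNA4, a nicotinic receptor subunit, was called at -5.06, LRRTM1, a synaptic adhesion protein, at -4.87 and GPR78, an orphan receptor, at -4.55. Each of these 3 lost its call in 4 of the 6 fits, with values of -5.31 to -3.99, -4.93 to -3.83 and -4.58 to -3.96. CHRNA4 and LRRTM1 did so without any 1 of DA8, DA11, DP3 and DP11, and GPR78 without replicate 3 or 11 of either location and also in edgeR (adjusted p = 0.0856). BCHE, a cholinesterase, was called at -4.39 and lost the call without DA8 (-3.73), and SSTR1, a somatostatin receptor, was called at -3.76 and lost it without any 1 of DA11, DP3 and DP11 (-3.56 to -2.54).

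Of 22 cadherins and protocadherins, 3 were called, all lower, and the median was -0.47. CDH23, a cadherin of the inner ear, had 14, 23.8 and 66.9 counts in dorsal anterior and 181, 129 and 552 in dorsal posterior skin (-3.0 ± 0.35, adjusted p = 9.51e-05; 0.0625 with no replicate block). PCDH18 fell by 1.50 (SE 0.31, adjusted p = 0.00901, ended without DA8 or DP3 at -1.17 and -1.37), and CDH11 by 0.65 (SE 0.16, adjusted p = 0.0233, ended without any of 5 of the 6 libraries at -0.68 to -0.58, all but DA11). Of 55 guidance ligands and receptors, 5 were called higher, 4 of them semaphorins and 1 a plexin, and 8 lower, with a median of -0.09. SEMA4D rose by 0.85 ± 0.17 (adjusted p = 0.00798), and the calls of SEMA3D, SEMA5A, SEMA5B and PLXNB1 ended in at least 5 of the 6 fits without 1 library (0.60 to 1.29). LRRN1, a neuronal leucine-rich repeat protein, had 506, 629 and 344 counts in dorsal anterior and 1419, 2559 and 785 in dorsal posterior skin (-1.57 ± 0.31, adjusted p = 0.00685; 0.0637 with no replicate block). UNC5B, a netrin receptor, was called at -1.34 ± 0.30 (adjusted p = 0.014) and lost the call without any 1 of DA3, DA11 and DP11 (-1.25 to -1.09).

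**Figure D4:**
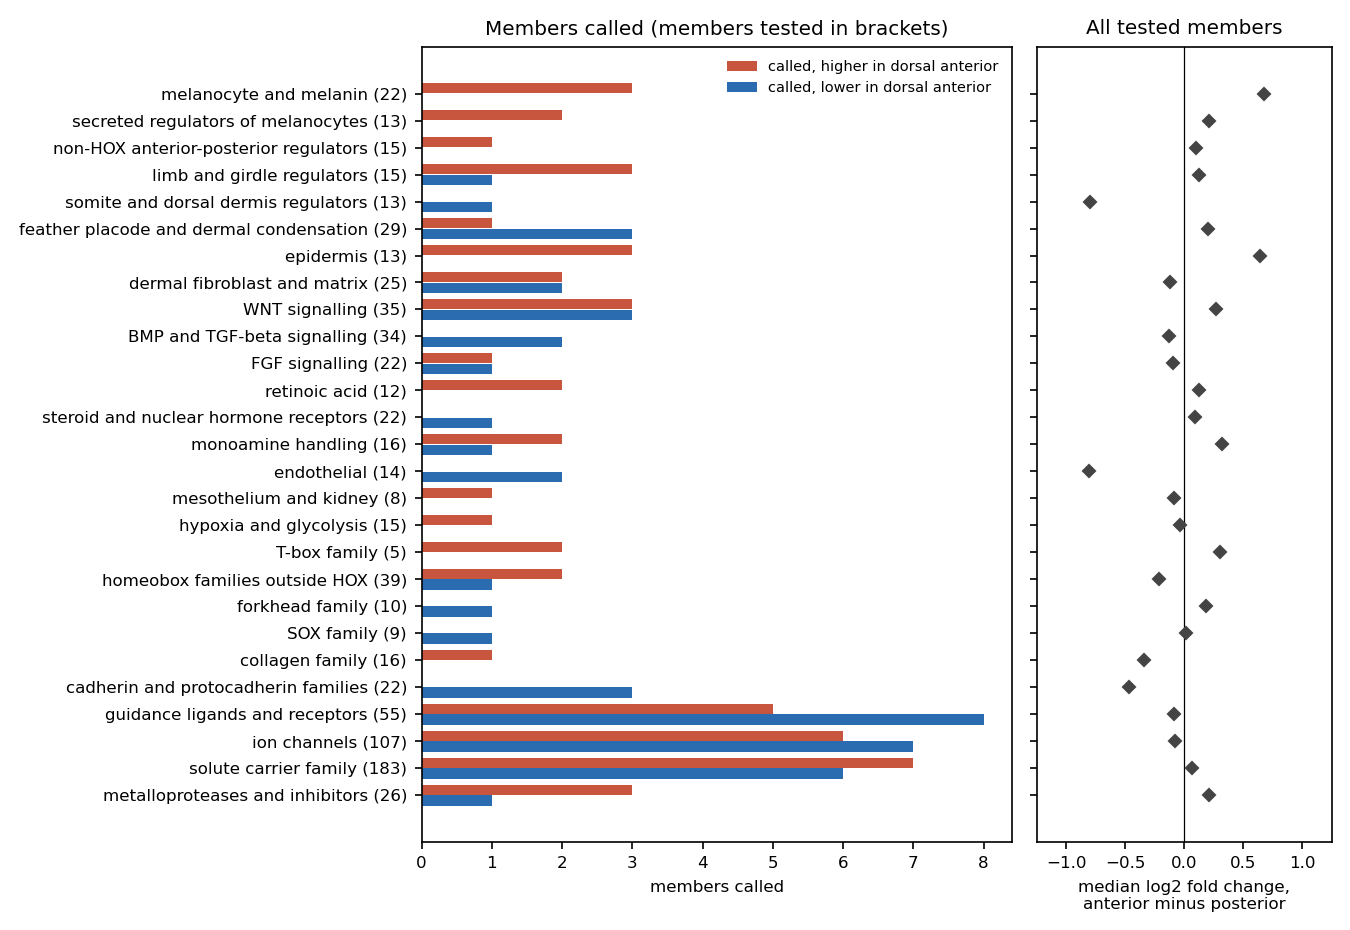
Left, the number of members called higher and lower in dorsal anterior than in dorsal posterior skin for each gene list with at least 1 called member, with the members tested in brackets. Over all genes tested 2% were called higher and 3.28% lower. Right, the median log2 fold change over all tested members, which was highest for the melanocyte list (0.67) and the epidermal list (0.64) and lowest for the endothelial list (-0.81).

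Of 183 entries of the solute carrier family, 7 were called higher and 6 lower, against 5.28% called of all genes tested, with a median of 0.06. SLC35E1 was at 542, 554 and 636 in dorsal anterior and 1217, 912 and 1023 in dorsal posterior skin (-0.86 ± 0.17, adjusted p = 0.00576). P4HA2, which hydroxylates collagen, was the called one of 15 genes of hypoxia and glycolysis (1.03 ± 0.21, adjusted p = 0.00857, ended without DP11 at 0.86). OSR2 was the called one of 8 genes of mesothelium and kidney, TWIST1 of 13 regulators of somites and back dermis (median -0.80) and SOX11 of 9 SOX genes.

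Markers of vessels, muscle and blood in the skin pieces had negative median differences. Not every member fell: the highest log2 fold change was 0.66 among endothelial, 0.45 among skeletal muscle and 0.48 among erythroid genes. Of 14 endothelial genes 2 were called lower. LMO2, a partner of blood and vessel transcription factors, had 123, 137 and 240 counts in dorsal anterior and 695, 962 and 695 in dorsal posterior skin (-2.28 ± 0.30, adjusted p = 0.000237), and ERG was called at -0.54 ± 0.15 (adjusted p = 0.0435), ended without any of 5 of the 6 libraries (-0.57 to -0.41), all but DA11, and in edgeR (adjusted p = 0.0507). The summed endothelial level was 1584 to 3521 in dorsal anterior and 2548 to 6537 in dorsal posterior skin. Skeletal muscle genes had a median of -1.43 with none of 18 called, at summed levels of 4144 to 15135 in dorsal anterior and 7788 to 9272 in dorsal posterior skin. The 7 erythroid genes had a median of -0.91 and summed to 7515 to 14685 in dorsal anterior and 9459 to 51055 in dorsal posterior skin, and the 7 macrophage and leukocyte genes had a median of -0.66 and summed to 394 to 625 in dorsal anterior and 702 to 984 in dorsal posterior skin. The part of these tissues in the called differences was not tested.

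No member was called by limma in 16 of the 43 lists: the genes flanking the HOX clusters, hedgehog and Notch signalling, skeletal muscle, cartilage and bone, neuron, spinal cord progenitor, Schwann cell and neural crest, erythroid, macrophage and leukocyte, smooth muscle and pericyte, cell cycle, immediate early and stress genes, the PAX and ZIC, the keratin and claudin, and the insulin-like growth factor families. Their 150 entries together had 28 with an unadjusted limma p under 0.05, against 2496 of the 13981 genes tested outside the HOX clusters. Of the 150 entries edgeR called none, and DESeq2 called 3 higher and 4 lower. Cell cycle genes had a median log2 fold change of 0.02. The list of genes flanking the HOX clusters held 12 tested genes, all with symbols. Called entries with no symbol beside the HOXA cluster, in a run given below, were not part of it.

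The mean log2 level of saddle skin lay between those of dorsal anterior and dorsal posterior skin for most called genes. The genes were called for a difference between those same locations, which favours a saddle position between them. No share over all genes tested is at hand, so the positions below cannot tell whether levels are graded along the back. With the dorsal posterior level set to 0 and the dorsal anterior level to 1, the median position of the saddle was 0.51 for the 274 genes called higher and 0.32 for the 451 called lower. It was nearer to the anterior level for 252 of the 725 genes and nearer to the posterior level for 368, and beyond the anterior level for 32 and beyond the posterior level for 73. EMX2 (1.03), SEMA4D (0.92), SLC24A5 (0.85) and TBX18 (0.85) were near the anterior level in saddle skin. WNT2 (0.28), CACNG3 (0.27), MMP15 (0.20) and DEPTOR (0.19) were near the posterior one.

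Some genes outside the rule for naming were singled out after their values were seen. OPN3, an opsin found in many tissues outside the eye (chromosome 3, 47128566 to 47143893), had 1657, 1011 and 932 counts in dorsal anterior skin, against 129, 127 and 145 in dorsal posterior and 200, 97.2 and 172 in saddle skin (3.11 ± 0.32, adjusted p = 4.36e-05). SMOC2, a secreted matrix protein that modulates growth factors, had 736, 1144 and 967 counts in dorsal anterior and 6429, 7890 and 6687 in dorsal posterior skin (-2.90 ± 0.51, adjusted p = 0.00324). SLITRK6, a neuronal membrane protein, had 187, 146 and 407 counts in dorsal anterior and 1698, 1355 and 2796 in dorsal posterior skin (-3.05 ± 0.35, adjusted p = 9.51e-05). The widest fall among entries not marked as HOX was that of GSZG0017375, which has no symbol and lies on an unplaced sequence. It had 3 reads in all 3 dorsal anterior libraries and 2989 in the 3 dorsal posterior ones (-9.10 ± 0.77, adjusted p = 8.25e-06). Its belly log2 fold change was -9.95. Without a symbol or a placed position, whether it belongs to a HOX cluster cannot be told. These 4 calls held without any 1 of the 6 libraries.

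Some called genes were neighbours on a chromosome. Runs of at least 3 with no HOX cluster entry lay on chromosomes 1A, 3, 5, 6, 10, 18 and 28, and those of 4 genes are given here. Another run, of 6 genes called higher on chromosome 2 (52350267 to 52598780), held 4 HOXA cluster entries. The rest of that run lay beside the cluster and had no symbol. How many runs the share of genes called would give by itself was not tested. On chromosome 1A a run of 4 genes within 69276413 to 69755460, EPS8, PTPRO, RERG and 1 with no symbol, was lower in dorsal anterior skin, with log2 fold changes of -3.52 to -1.01. RERG, a RAS-related growth inhibitor, was at 147, 175 and 38.9 in dorsal anterior and 663, 616 and 520 in dorsal posterior skin (-2.56 ± 0.43, adjusted p = 0.00216), and the EPS8 call (-1.01, adjusted p = 0.0394) held in 2 of the 6 fits without 1 library. On chromosome 3, MTHFD1L and 3 genes with no symbol within 56596822 to 56803102 were lower by -2.01 to -1.85.

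Whether these differences run along the belly too was tested as the back difference minus the difference of ventral anterior over ventral posterior skin, in the same fit. This called 2.93% of all genes tested, 1.33% with a positive and 1.61% with a negative difference, and 220 of the 725 genes (30.3%), a share that rests on the same dorsal libraries as the 725 calls. Outside the HOX clusters the test called 398 genes, and 6 without replicate number 8 at every location. The belly difference had the sign of the back difference for 60.7% of the 725 genes, against 55.1% of the 13256 genes not called. For SLC18A2 the belly libraries were low throughout, at 19.5, 12 and 2.18 in ventral anterior and 29.3, 23.3 and 21.5 in ventral posterior skin, and the back exceeded the belly difference by 8.53 ± 1.28 on the log2 scale (adjusted p = 0.00258). OSR2 was high on the belly and had the opposite sign there, at 492, 187 and 1781 in ventral anterior and 1792, 522 and 6260 in ventral posterior skin (7.43 ± 0.87, adjusted p = 0.000576).

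TBX18 had 25.3, 26.7 and 63.2 counts in ventral anterior and 20.9, 50.6 and 119 in ventral posterior skin, and its back difference exceeded the belly one by 4.44 ± 0.54 (adjusted p = 0.000576). CACNG3 had 31.1, 57.9 and 21.8 counts in ventral anterior and 80.5, 35.6 and 19.5 in ventral posterior skin (-7.40 ± 0.96, adjusted p = 0.000998). DSP had 6365, 6066 and 3886 counts in ventral anterior and 7777, 11846 and 9219 in ventral posterior skin, opposite to the back (1.68 ± 0.23, adjusted p = 0.0013). SLC24A5 differed by 1.32 ± 0.18 (adjusted p = 0.0013), with a belly log2 fold change of -0.11. CRABP1 shared the sign but had a far larger difference on the belly, 28770, 41790 and 37281 in ventral anterior against 1130, 443 and 1350 in ventral posterior skin, so that the back minus the belly was -3.74 ± 0.57 (adjusted p = 0.0029).

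Other genes had a belly difference of the same sign that was not called different from that of the back. WNT16 had 93.4, 256 and 1000 counts in ventral anterior and 10.5, 28.7 and 31.8 in ventral posterior skin, and the back exceeded the belly by 0.75 ± 0.99 (adjusted p = 0.8). ESR1 had 5.84, 11 and 13.1 in ventral anterior and 150, 338 and 113 in ventral posterior skin (-1.70 ± 1.09, adjusted p = 0.513). These SEs leave room for differences of several-fold.

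**Figure D5:**
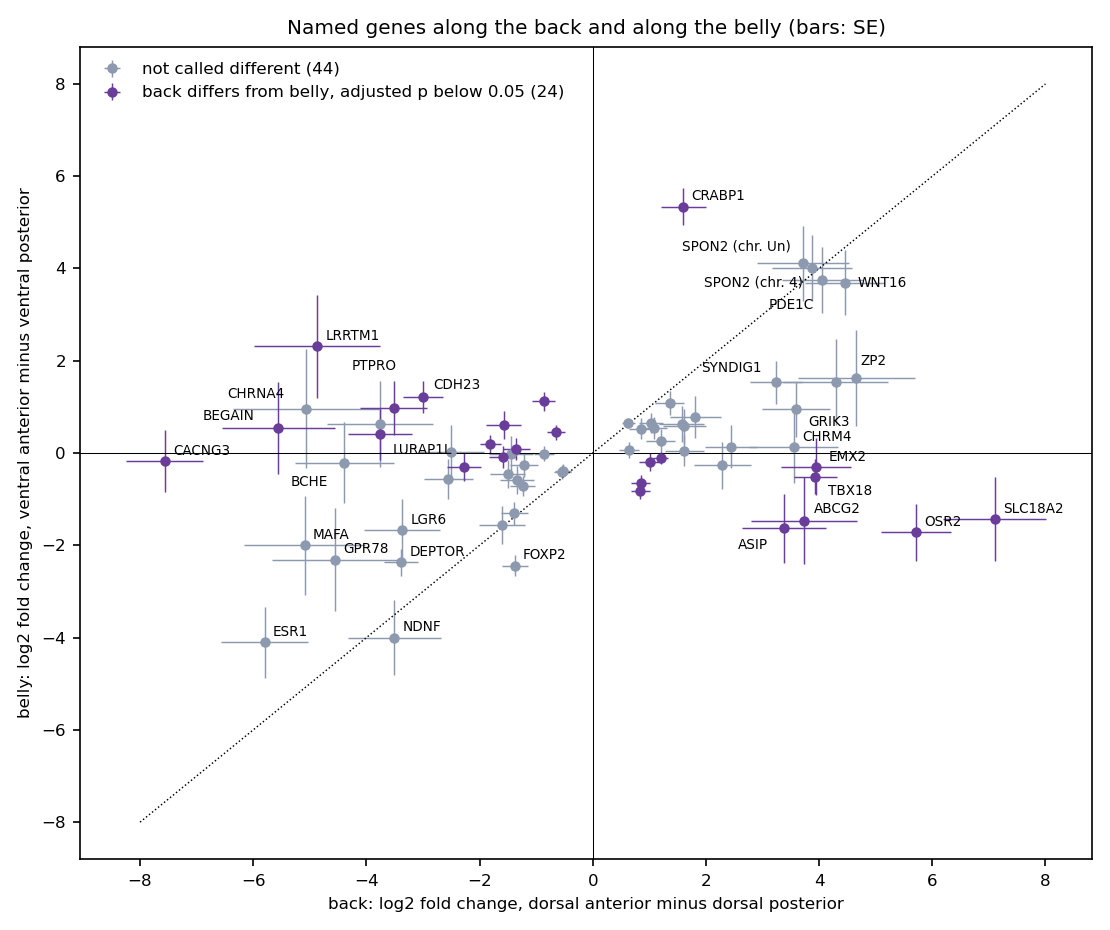
Log2 fold change along the belly (ventral anterior over ventral posterior, vertical axis) against that along the back (dorsal anterior over dorsal posterior, horizontal axis) for the 68 named entries called on the back, with SE bars and a dotted line of equality. SLC18A2 (7.10 on the back) and OSR2 (5.71) lie below 0 on the belly, while WNT16 (4.45) and ESR1 (-5.80) have the same sign on both.

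Of 68 called entries, 34 kept their call without each of the 6 libraries in turn, among them SLC18A2, OSR2, WNT16, PDE1C, EMX2, TBX18, SYNDIG1, SLC24A5 and KITLG on the higher side and CACNG3, ESR1, BEGAIN, LURAP1L, PTPRO, DEPTOR, LGR6, CDH23, EDA, LMO2 and MMP15 on the lower side. DRD1, ADAMTS2 (1.57 ± 0.40, adjusted p = 0.0277, ended without any 1 of DA8, DA11, DP8 and DP11 at 1.10 to 1.59) and the others named above with their values did not. Without replicate number 8 at any location, however, the calls of EMX2, PDE1C, KITLG, BEGAIN, LURAP1L, PTPRO and LGR6 ended. Those of KITLG and PDE1C also ended without number 3, and that of KITLG without number 11. With no replicate block 26 of the 68 calls ended, at adjusted p of 0.0561 to 0.798: those of ABCG2, ADAMTS2, BMP3, CDH11, CDH23, CHRM4, CHRNA4, CRABP1, DRD1, ERG, ESRP2, KIT, KITLG, LRRN1, NDNF, P4HA2, RAB32, SOX11, SPRY1, SSTR1, TBX15, TFAP2C, TGFBR2, TWIST1, UNC5B and ZP2. With the 6 libraries alone in the fit 9 ended, those of ADAMTS2, BMP3, CHRM4, CUX1, ERG, ESRP2, RARA, SOX11 and SSTR1. MAFA and FGF10 were not tested in that fit, since they did not reach 10 in 3 of the 6 libraries.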

How the data were processed

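Skin RNA was kept in RNAlater, extracted with an RNeasy micro kit, amplified with SMART-Seq v4 and made into Nextera XT libraries, per the labels' protocols. The deposited table is titled as DESeq2-normalised expression and holds 1 normalised count, treated as a signal, per gene and library, as the authors made it. FastQC, Picard, SAMtools, STAR 2.4.0 and DESeq2 are named, without their roles, in the submitters' processing notes. Genome build and counting program: not given in the sources used here, so coordinates are those of the table. The values were whole multiples of 1 step per library (0.78 to 1.37), and dividing by it gave whole reads for 100.0% of values (within 0.01 read). The libraries hold 12852638 to 22994609 such reads, and since no molecular identifiers were used, floors of 3 reads cover counting error only.

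Symbols came from the table's Entrez identifiers, of which 8707 of 9858 were found in a RefSeq gene table (bTaeGut7.mat), or from the deposited name: 8546 of 18202 entries have one (8121 and 425) and 9656 do not. HOX clusters were found by symbols and coordinates and left out of the counts. An entry with no symbol on an unplaced sequence could not be recognised as part of a cluster. Of the entries, 14005 that reached 10 in 3 or more libraries were tested as log2(value + 1) with limma 3.58.1 (R 4.3.3, trend and robust), in 1 fit of all 21 libraries with location and replicate number as terms and 12 residual degrees of freedom. Within the dorsal locations, deviations from the location mean correlated at 0.50, 0.53 and 0.49 over 14005 genes between libraries of the same number. The numbers were therefore taken to pair the samples. Values between different numbers were -0.30 to -0.16. Since deviations from a mean cancel out, these are bound to be negative on average when the same-number values are positive. On the recovered reads edgeR 4.0.16 called 661 genes outside the HOX clusters and DESeq2 1.42.0 called 1174. Other alternatives were the pseudocount, the filter, TMM rescaling, fewer libraries in the fit and leaving out libraries.

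Genes named are called genes with a symbol and the same sign within each replicate number: the 15 with the largest difference in each direction and a mean log2 level of at least 5 at the higher location, up to 3 members per list by adjusted p, and 9 pigment genes wherever tested. Some genes are not reported here and were left out of the lists after naming. The rule's part on promoter sequences was not applied here. Further called members of the lists, other melanin genes, OPN3, SMOC2, SLITRK6 and the genes of neighbour runs were chosen after their values were seen. The members and lists were chosen with earlier results of these data known. The scripts were checked on simulated data.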

Additional observations from a re-analysis of the deposited data

Results flagged for a closer look

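For 24 named genes the difference along the back differed from that along the belly in limma's interaction test, which uses the same dorsal libraries as the calls above. Ventral anterior and ventral posterior libraries are written VA and VP with their number. The values are log2 differences of dorsal anterior over dorsal posterior skin minus those of ventral anterior over ventral posterior skin. Positive differences were found for SLC18A2 (8.53), OSR2 (7.43), ABCG2 (5.20), ASIP (5.01), TBX18 (4.44), EMX2 (4.24), DSP (1.68), SEMA4D (1.50), SLC24A5 (1.32) and KITLG (1.20). Negative ones were found for CACNG3 (-7.40), LRRTM1 (-7.18), BEGAIN (-6.10), PTPRO (-4.50), CDH23 (-4.21), LURAP1L (-4.18), CRABP1 (-3.74), LRRN1 (-2.18), MMP15 (-2.01), CUX1 (-1.99), LMO2 (-1.98), HCN2 (-1.50), ROR2 (-1.43) and CDH11 (-1.09).

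Of the 24, 15 were called without each of the 12 dorsal and ventral anterior and posterior libraries in turn. Without replicate numbers 3, 8 and 11 at every location, however, 10, 20 and 8 of the 24 calls ended. With no replicate block 11 ended, and with the 12 compared libraries alone in the fit 10 did. ASIP (4.33) and EMX2 (3.82) lost the call without DA8, and LMO2 (-1.78) without DA3. ROR2 kept the call in 2 of the 12 fits (the 12 values span -1.74 to -1.26), lost in all but those without DA11 and VA3. ABCG2 kept it in 3 (4.40 to 6.23), those without DP11, VP11 and VA3. KITLG also kept it in 3 (1.01 to 1.42), those without DA11, VA8 and VP8. BEGAIN kept it in 5 (-7.31 to -5.04), and lost it without any 1 of DA3, DA8, DP3, DP11, VA8, VA11 and VP3. HCN2 kept it in 6 (-1.66 to -1.35), and lost it without any 1 of DA3, DA8, DP8, VA8, VP3 and VP11. LRRTM1 kept it in 6 (-8.90 to -6.14), and lost it without any 1 of DA8, DP3, DP11, VA11, VP3 and VP8.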

How the results depend on the processing

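The 725 calls between dorsal anterior and dorsal posterior skin became 305 with no replicate block and 1174 with DESeq2, and lay between 661 and 911 with edgeR, other pseudocounts, other filters, TMM rescaling, and fits of 6 or 9 libraries. Leaving out 1 library or 1 replicate number gave 109 to 592 calls, the lowest without replicate 8. The 398 genes whose difference differed between back and belly became 107 with no replicate block, 241 with the 12 compared libraries alone and 855 with DESeq2, and 6 to 478 when a library or number was left out, with 6 without replicate 8. Single libraries that moved the 398 by more than 1.5 times were DA3 and DA8 (227 and 199), DP3 and DP8 (189 and 226) and VP3 (250). No named difference changed sign under any of these settings. Of the 34 named calls that held without each single library, 26, 17 and 30 held without replicate numbers 3, 8 and 11. Without number 3 those of DCN, GRIK3, KITLG, LRRN1, PDE1C, ROR2, SLC35E1 and SPON2 ended. Without number 8 those of BEGAIN, DCN, DSP, EMX2, FOXP2, GRIK3, HCN2, KITLG, LGR6, LRRN1, LURAP1L, PDE1C, PTPRO, ROR2, SEMA4D, SLC35E1 and TWIST1 ended. Without number 11 those of KITLG, TFAP2C, TWIST1 and WNT2 ended. The cause of these changes was not tested. With 3 libraries per location, low counts such as those of MAFA, FGF10 and BEGAIN limit what can be told apart.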
